A study of Homo sapiens with 8 samples.

Results

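The genes described here are those of the mitochondrial ribosomal proteins, chosen by symbol: MRPL or MRPS, a number and at most 1 further letter, with at least 10 counts in 2 or more of the 8 libraries. Of the 23228 genes listed for each library, 76 symbols had this form and 75 met the count threshold, 47 of them MRPL and 28 MRPS. The threshold looked at level and not at any difference between groups. MRPS18C lay lowest inside it, with 205 to 342 counts per library, and MRPS24 lay outside, with 0 to 2 counts. A readthrough gene listed under its own symbol, URGCP-MRPS24, had 0 counts in every library. Reads shared by these symbols cannot be assigned with certainty, so the counts of MRPS24 do not show that its RNA was absent.

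The RNA came from cells labelled U87 MG, a long-established line of human glioblastoma, and was sequenced in 4 groups of 2 libraries. The control group is U87 without a genetic change, and ERb_KO is U87 in which CRISPR/Cas9 was used against estrogen receptor beta (ERβ, gene ESR2). Per the labels, the groups ERb1 and ERb5 started from those knockout cells and received ERβ1 or ERβ5, so both should carry the knockout as well as an isoform. All cells were grown in DMEM with FBS, and neither an estrogen treatment, nor the vector of the isoforms, nor the number of clones behind a group is named in the labels.

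Mitochondria carry their own ribosome, which translates the few proteins encoded by mitochondrial DNA, all of them parts of the oxidative phosphorylation complexes. Its RNA comes from mitochondrial DNA, but every one of its proteins is encoded in the nucleus, made in the cytosol and imported. The large subunit joins amino acids and the small subunit reads the messenger RNA. Some of these proteins have a counterpart in the bacterial ribosome and others are particular to mitochondria, and loss of single ones is known from inherited disorders of energy metabolism.

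Gene reads per library ran from 26760897 to 48076414. Replicates differed by more than counting noise: chi-square over its degrees of freedom was lowest between the control libraries, at 7.82, and highest between those of ERb5, at 43.35. Whether the libraries of a group are separate cultures is not stated, so the p-values reflect the spread among these libraries alone, which may be technical. ESR2 had 25 and 20 reads in the control libraries, 23 and 21 in those of ERb_KO, 6 and 18 in those of ERb1, and 7 and 10 in those of ERb5. The ERb1 and ERb5 libraries thus held no more ESR2 reads than the others, which goes against their labels, and the ERb_KO libraries did not stand below control; every group name below means the libraries labelled so. The markers of the labelled cell type were mostly low: 3 of 10 astrocyte and glioma markers (CD44, LGALS1, FN1) reached 10 CPM (counts scaled to a common library size) in all libraries, S100B, OLIG2 and POSTN had no reads, and GFAP lay at 0.0459 to 0.136 CPM and VIM at 1.82 to 12.4 CPM. All 10 luminal epithelial markers on the other list were at 10 CPM or more in every library, among them KRT8 at 2060 to 4450 CPM and GATA3 at 1120 to 1840 CPM. The epithelial markers summed to 14426 to 15190 CPM in control, 12507 to 12876 in ERb_KO, 17396 to 18386 in ERb1 and 16222 to 17313 in ERb5, and the glioma markers to 248 to 260, 262 to 305, 203 to 228 and 204 to 209 CPM. These sums move between the groups compared below, and their part in the results was not tested. In bulk RNA, fewer cells of a type and less RNA per cell cannot be told apart.

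Summed, the 75 genes took 0.472 to 0.524% of gene reads. Control had sums of 5129 and 5297 CPM, ERb_KO of 4616 and 5012, ERb1 of 5038 and 4986, and ERb5 of 4782 and 5267. Both control libraries lay above both libraries of ERb_KO and of ERb1, and every other pair of groups overlapped. The summed CPM of MRPL genes stood at 1.37 to 1.46 times that of MRPS genes in every library.

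Levels of different genes were compared per kilobase of transcript (CPM per kilobase, mean of the 4 group means). MRPS18B was highest at 143, followed by MRPL41 at 129, MRPL33 at 125, MRPS34 at 125 and MRPL51 at 116. Over the 8 libraries MRPS18B ranged from 129 to 156 and MRPL41 from 76.8 to 197, so the order among the leading genes is within their spread. The lowest were MRPL42 at 2.29, MRPS18C at 4.94, MRPS17 at 6.87, MRPL50 at 7.59 and MRPL19 at 10.1. The value of MRPL42 rests on a canonical transcript of 15557 bases and would be higher with a shorter one. The paralogs MRPS18A, MRPS18B and MRPS18C are all related to bacterial S18, MRPS18A sits in the large subunit, and their levels were 63.5, 143 and 4.94 CPM per kilobase. Other genes overlap 83.6% of the exon bases of MRPS18C and 60.6% of those of MRPS18A. The overlap is 32.6% for MRPS34, 29.4% for MRPS17 and 22.9% for MRPL19. Reads of these genes cannot be assigned with certainty, and their levels carry that limit.

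**Figure D1:**
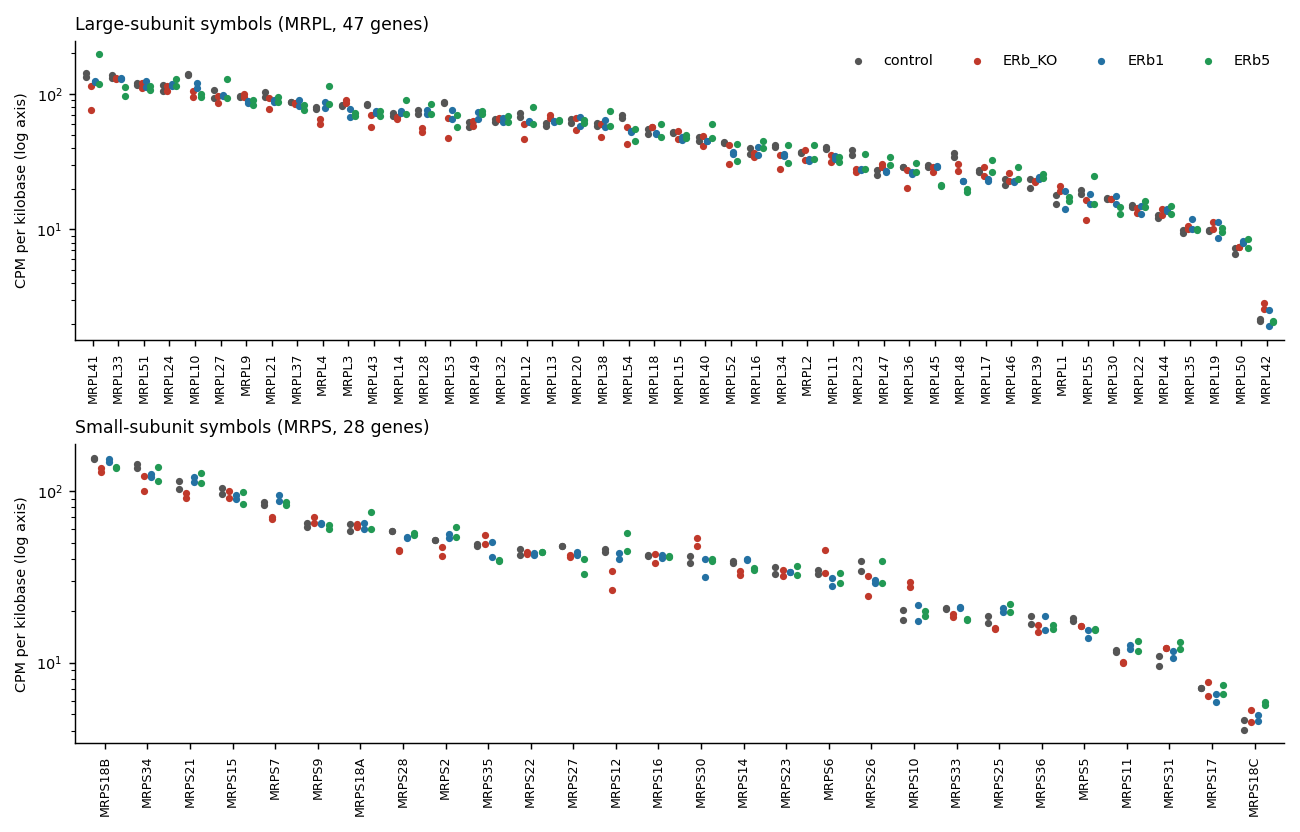
CPM per kilobase of transcript (log axis) of the 47 MRPL genes (top) and the 28 MRPS genes (bottom), ordered by mean, with 1 point per library coloured by group. Most genes keep their 8 points close together, from MRPS18B at 129 to 156 down to MRPL42 at 1.92 to 2.88, and MRPL41 and MRPL48 are among the most scattered.

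Most of these genes were steadier than other genes. Their coefficient of variation over the 8 libraries had a median of 10.4%, against 15.5% over all 13915 genes tested. The ratio of the highest to the lowest group mean had a median of 1.22 and reached 1.5 in 6 of 75 genes (8.0%), against a median of 1.36 and 34.3% over all genes tested. Low genes scatter more, and all 75 were expressed well above the filter on low counts, so the comparison is a description. MRPS22, a small-subunit protein without a bacterial counterpart, was steadiest with a coefficient of variation of 2.82% and levels between 50.8 and 55.6 CPM. MRPL32 followed at 3.46% and MRPS16, a small-subunit protein kept from bacteria, at 3.73%. The most variable were MRPL41 at 26.1%, then MRPL48, then MRPL55 at 22.0%.

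ERb_KO was compared with control to ask what changes where the receptor gene was targeted. One gene rose and 7 fell at an adjusted p under 0.05 (edgeR quasi-likelihood test, Benjamini-Hochberg over all genes). That is 10.7% of the 75, against 17.5% of all genes tested, with 8.98% of all genes higher and 8.52% lower. No change reached 2-fold, and the median log2 change was -0.07 against 0.01 over all genes. The 2 libraries of each group did not overlap, with ERb_KO higher, for 12 of the genes (16.0%, against 35.5% of all genes) and, with ERb_KO lower, for 35 (46.7%, against 33.6%).

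MRPS10, a small-subunit protein with a bacterial counterpart, was the gene that rose. The control libraries had 42.4 and 37.3 CPM, those of ERb_KO 57.9 and 62.2, of ERb1 36.7 and 45.4, and of ERb5 41.9 and 39.4. Both ERb_KO libraries stood above the other 6, and the log2 change against control was 0.59 ± 0.12 (SE, adjusted p = 0.0107). The gene is at chr6:42174545-42185599 on the minus strand (GRCh37).

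The falls named here were in both subunits. MRPS12, which forms part of the decoding centre of the small subunit, lay at 42.2 and 44.1 CPM in control and 25.4 and 32.6 in ERb_KO. Its log2 change was -0.58 ± 0.15 (adjusted p = 0.0226; chr19:39421584-39423808, plus strand). The groups did not overlap, although the ERb_KO libraries differed from each other by several CPM. MRPL10, which anchors the stalk that recruits translation factors, went from 242 and 249 CPM to 168 and 185. That is a log2 change of -0.48 ± 0.1 (adjusted p = 0.00914; chr17:45900638-45908907, minus strand). MRPL28, a conserved large-subunit protein, went from 109 and 116 CPM to 80.0 and 85.0, a log2 change of -0.45 ± 0.11 (adjusted p = 0.0189; chr16:416969-421289, minus strand). In MRPL10 and MRPL28 the replicates of ERb_KO lay close together and well below control.

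MRPL53, a mitochondria-specific protein of the large subunit, was at 43.0 and 43.1 CPM in control and 23.5 and 33.0 in ERb_KO, with a log2 change of -0.61 ± 0.16 (adjusted p = 0.027). Other genes overlap 99.2% of its exon bases, CCDC142 among them, and without the strand setting of the counting its reads cannot be assigned with certainty (chr2:74699109-74699814, minus strand). MRPL43, another mitochondria-specific protein, changed by -0.40 ± 0.12 (adjusted p = 0.036). MRPL23, which sits at the mouth of the exit tunnel in bacteria, went from 24.1 and 26.1 CPM to 19.0 and 18.0 and changed by -0.44 ± 0.14 (adjusted p = 0.0449). The remaining fall, in MRPS28, was -0.38 ± 0.1 (adjusted p = 0.0223), and this gene was named after its value was seen; another gene overlaps 56.2% of its exon bases.

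By role, the stalk protein MRPL12, which also binds the mitochondrial RNA polymerase, had a log2 change of -0.39 ± 0.15 (adjusted p = 0.0958) and its neighbour MRPL11 of -0.26 ± 0.11 (adjusted p = 0.11). MRPS7, in the head of the small subunit, stood at -0.29 ± 0.09 (adjusted p = 0.0518), and MRPS18B at -0.23 ± 0.09 (adjusted p = 0.0982). MRPL41, a large-subunit protein that has also been linked to p53, stood at -0.54 ± 0.23 (adjusted p = 0.135). MRPL3, which reaches towards the catalytic centre, stood at 0.10 ± 0.1, and MRPL44, MRPS16, MRPS22, MRPS18A and MRPS18C lay between -0.06 and 0.16. MRPS36, now known as a subunit of the oxoglutarate dehydrogenase complex, stood at -0.16 ± 0.13 (adjusted p = 0.393). None of these role genes passed edgeR's test in this comparison. DESeq2 called MRPS7 (adjusted p = 0.0394) and MRPL41 (adjusted p = 0.0382). A block for replicate number in edgeR led to calls of MRPL12 (adjusted p = 0.0498) and MRPL41 (adjusted p = 0.0419).

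Calls depended on single libraries here, over all genes as in this set. Without control replicate 2, or without ERb_KO replicate 1, none of the 75 genes passed, where 1.67% and 2.96% of all genes tested did. Without control replicate 1, 1 rose and 0 fell (3.56% of all genes in either direction), and without ERb_KO replicate 2, 0 rose and 6 fell (10.4%). Without either ERb1 library 3 rose and 8 fell (20.1%), and without either ERb5 library 1 rose and 14 fell (22.4% and 22.7%).

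**Figure D2:**
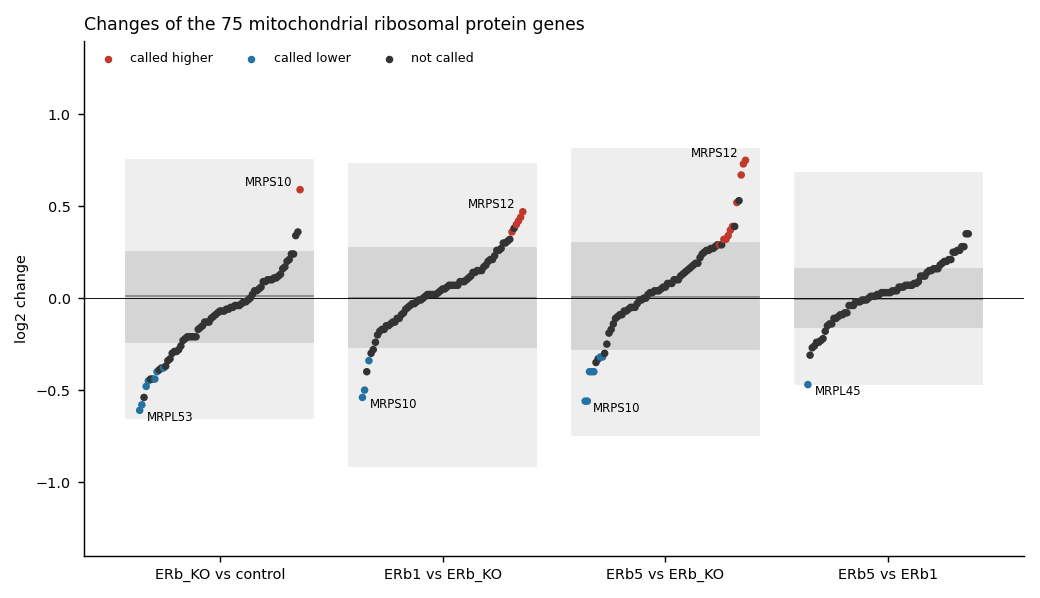
Log2 changes of the 75 genes in the 4 main comparisons, each point a gene sorted by its change, red called higher, blue called lower and black not called. Pale and darker bands mark the central 90% and 50% of all genes tested; the points lie within the pale band or at its edge, from -0.61 to 0.59 in ERb_KO against control.

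The same comparison was ordered by the base composition of the transcripts. Over the 75 genes, the log2 change of ERb_KO against control fell as the GC content of the transcript rose (Pearson's r = -0.67, Spearman's rho = -0.66, across genes that share the same 4 libraries; a description), and over all genes with a known GC content r was -0.47. The 25 genes of lowest GC content, 34.8 to 44.5%, had a median log2 change of 0.09 with 1 rise and 1 fall. The 25 in the middle had -0.07 and no call, and the 25 of highest GC content, 52.3 to 66.7%, had -0.34 with 6 of the 7 falls. The libraries themselves differed in this trend: over the 75 genes, the correlation of a library's level with GC content, each gene taken relative to its mean, was -0.71 and -0.42 for the ERb_KO libraries, 0.37 and 0.47 for control, 0.33 and -0.46 for ERb1, and -0.14 and 0.53 for ERb5. So the replicates of ERb1 and of ERb5 took opposite signs. Each library's trend with GC content and length over all genes was then removed. This took r over all genes to -0.01 but over the 75 genes to 0.34, so that in this set the trend was turned over and not only removed, and the corrected values carry that limit. After it, MRPS10 kept a change of 0.43 (adjusted p = 0.0124) and MRPL10 of -0.34 (adjusted p = 0.00868), whereas MRPS12 stood at -0.26 (adjusted p = 0.0719), MRPL28 at -0.17 (adjusted p = 0.122), MRPL53 at -0.30 (adjusted p = 0.0885), MRPL43 at -0.18 (adjusted p = 0.185) and MRPL23 at 0.07 (adjusted p = 0.745). MRPS28 remained at -0.42 (adjusted p = 0.00939).

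**Figure D3:**
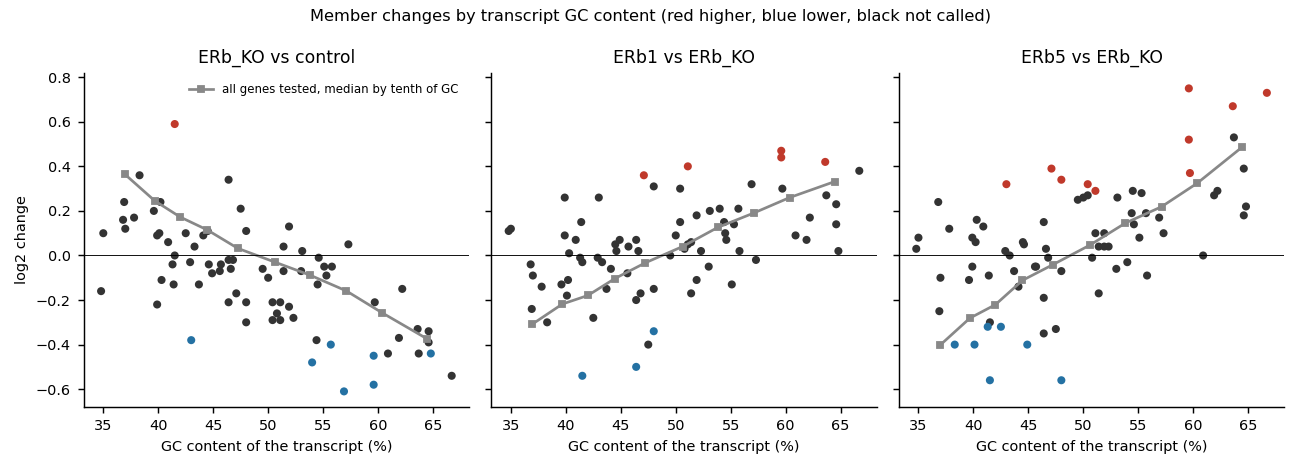
Log2 change of each of the 75 genes (points; red called higher, blue called lower, black not called) against the GC content of its transcript in percent, for 3 comparisons; grey squares are medians of all genes tested by bins of GC content that hold equal numbers of genes. The points fall from left to right in ERb_KO against control and climb in both comparisons against ERb_KO, as do the grey squares.

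The libraries labelled ERb1 were compared with those labelled ERb_KO. In ERb1, 5 of the 75 genes rose and 3 fell against ERb_KO, 10.7% against 24.9% of all genes tested, of which 12.4% were higher and 12.5% lower. The median log2 change was 0.05. Groups did not overlap with ERb1 higher for 22 genes (29.3%, against 33.4% of all genes) and with ERb1 lower for 13 (17.3%, against 31.9%). The comparison shares its ERb_KO libraries with the one before and with the next, so these values are not independent of each other.

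Small-subunit proteins made up 3 of the 5 rises. MRPS7 lay at 82.2 and 84.3 CPM in ERb_KO and 114 and 105 in ERb1, with no overlap and a log2 change of 0.40 ± 0.09 (adjusted p = 0.0111; chr17:73257755-73262457, plus strand). MRPS12 rose by 0.47 ± 0.15 (adjusted p = 0.0373), to 41.9 and 38.2 CPM. MRPS25, a small-subunit protein particular to mitochondria, went from 71.8 and 73.2 CPM to 95.7 and 90.3, with a log2 change of 0.36 ± 0.1 (adjusted p = 0.0241). Other genes, NR2C2 among them, overlap 44.1% of its exon bases, so its reads too cannot be assigned with certainty. Both large-subunit rises were in conserved proteins: MRPL28 rose by 0.44 ± 0.11 (adjusted p = 0.0136), to 116 and 108 CPM. MRPL4, which lines the exit tunnel, went from 72.8 and 79.5 CPM to 107 and 95.8, a log2 change of 0.42 ± 0.13 (adjusted p = 0.0399).

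The falls were in MRPS10, MRPS30 and MRPL48. MRPS10 fell by 0.54 on the log2 scale (SE 0.12, adjusted p = 0.00939). MRPS30, a large-subunit protein despite its symbol, went from 78.9 and 88.1 CPM to 52.1 and 65.7, a log2 change of -0.50 ± 0.12 (adjusted p = 0.0138). Its control libraries lay at 69.0 and 62.4 CPM and its ERb5 libraries at 64.4 and 66.3, so ERb_KO held the 2 highest values. MRPL48 fell by 0.34 (SE 0.11, adjusted p = 0.0407) and is described with its other comparisons below.

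No gene of the set passed without ERb1 replicate 1, where 8.44% of all genes did. Rises and falls were 0 and 4 without ERb_KO replicate 1 (13.0% of all genes), 4 and 0 without ERb_KO replicate 2 (14.2%), 4 and 5 without ERb1 replicate 2 (26.6%), 2 and 2 without either control library (17.7% and 17.8%), and 9 and 5 or 8 and 5 without ERb5 replicate 1 or 2 (29.6% each). With the GC and length trend of all genes removed MRPS12 stood at 0.19 (adjusted p = 0.136), MRPL28 at 0.17 (adjusted p = 0.0762) and MRPL4 at 0.07 (adjusted p = 0.533), but r with GC content over the 75 genes then went from 0.48 to -0.48, a reversal of the same size.

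The libraries labelled ERb5 were likewise compared with those labelled ERb_KO. This comparison had more called genes than the other 3 main ones in the fit of all libraries. With only the groups compared, ERb_KO against control had 18 (31.7% of all genes tested were called) and ERb5 against ERb_KO had 9 (20.6%). In the fit of all libraries, 10 of the 75 genes rose and 7 fell, 22.7% against 28.2% of all genes tested, of which 14.7% were higher and 13.5% lower. The median log2 change was 0.06, against 0.01 over all genes, and the extremes were -0.56 and 0.75. Groups did not overlap with ERb5 higher for 17 genes (22.7%, against 32.7% of all genes) and with ERb5 lower for 17 (22.7%, against 33.3%). Of the 15 small-subunit proteins with a bacterial counterpart, 6 rose and 1 fell. The counts were 2 and 2 of the 30 conserved large-subunit proteins, 1 and 3 of the 19 large-subunit proteins particular to mitochondria, and 1 and 1 of the 10 such small-subunit proteins; these classes were not compared by a test.

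MRPS12 rose most, from 25.4 and 32.6 CPM to 42.9 and 54.6, a log2 change of 0.75 ± 0.15 (adjusted p = 0.0055). MRPL41 went from 44.7 and 66.6 CPM to 69.2 and 115, with a change of 0.73 ± 0.23 (adjusted p = 0.0462). The groups of MRPL41 were separated by less than the replicates of either group, and the call was lost without ERb5 replicate 2 or ERb_KO replicate 1. MRPL4 went from 72.8 and 79.5 CPM to 104 and 138, a change of 0.67 ± 0.13 (adjusted p = 0.00585; chr19:10362577-10370731, plus strand, 39.7% of exon bases shared with other genes). MRPL28 reached 108 and 129 CPM, a change of 0.52 ± 0.11 (adjusted p = 0.00719).

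The other rises were in the small subunit. MRPS25 reached 90.2 and 99.7 CPM, a change of 0.39 ± 0.1 (adjusted p = 0.0168). MRPS2, a conserved protein, went from 61.2 and 68.9 CPM to 78.2 and 90.2, a change of 0.37 ± 0.11 (adjusted p = 0.0258). MRPS7 rose by 0.29 ± 0.09 (adjusted p = 0.0415). MRPS21, MRPS11 and MRPS28, added to the names after their values were seen, rose by 0.32 to 0.34. MRPS11 passed narrowly (adjusted p = 0.0497) and did not with the replicate number as a block (adjusted p = 0.0575), and without a filter on low counts MRPS7, MRPS11 and MRPS28 were not called.

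Among the falls, MRPL48, which belongs to the central protuberance of the large subunit, changed by -0.56 ± 0.11 (adjusted p = 0.00525). MRPS10 changed by -0.56 ± 0.12 (adjusted p = 0.00918), to 41.9 and 39.4 CPM. MRPL45, which sits at the tunnel exit and faces the inner membrane, went from 41.4 and 44.6 CPM to 32.4 and 32.9, a change of -0.40 ± 0.1 (adjusted p = 0.0155). For all of these the ERb5 libraries lay below both ERb_KO libraries.

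MRPS35 went from 89.4 and 101 CPM to 72.8 and 71.7, a change of -0.40 ± 0.11 (adjusted p = 0.0247). MRPL42 went from 40.3 and 44.9 CPM to 32.5 and 32.2, a change of -0.40 ± 0.13 (adjusted p = 0.0459). Both proteins are particular to mitochondria. MRPL3 changed by -0.32 ± 0.1 (adjusted p = 0.0333) and MRPL33, one of the highest genes per kilobase, by -0.32 ± 0.11 (adjusted p = 0.0429).

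The calls of MRPS12, MRPL4, MRPL28 and MRPL48 passed without each of the 4 libraries of this comparison in turn; rises and falls numbered 3 and 3 without ERb5 replicate 2 (11.8% of all genes called), 16 and 8 without ERb5 replicate 1 (30.8%), 5 and 1 without ERb_KO replicate 2 (12.1%), 3 and 5 without ERb_KO replicate 1 (13.1%), and 4 and 4 without either control library (20.1% and 20.3%). With the GC and length trend of all genes removed, r with GC content over the 75 genes went from 0.58 to -0.40, again turned over. In that fit 22 of the 75 genes were called, where 18.1% of all genes tested were. Of the 17 calls 10 remained, MRPS12 at 0.43 (adjusted p = 0.00857), MRPL28 at 0.21 (adjusted p = 0.0445), MRPL48 at -0.54 (adjusted p = 0.00325), MRPL45 at -0.29 (adjusted p = 0.0244) and MRPS10 at -0.33 (adjusted p = 0.0277) among them, and the rest of the 22 were new. MRPL4 (0.22, adjusted p = 0.0563), MRPL41 (0.13, 0.422), MRPS2 (0.06, 0.524), MRPS35 (-0.12, 0.256), MRPL42 (-0.12, 0.523), MRPL3 (-0.13, 0.177) and MRPL33 (-0.17, 0.301) no longer passed.

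Here too the change followed base composition, with r = 0.58 and rho = 0.55 over the 75 genes and r = 0.54 over all genes with a known GC content. The 25 genes of highest GC content held 5 rises and no fall with a median of 0.22, and the 25 of lowest GC content held 1 rise and 5 falls with a median of -0.05. The replicates of ERb5 also differed: the gap between them had a median of 0.16 on the log2 scale over the 75 genes and was largest for MRPL41 at 0.73, against medians of 0.08 in control, 0.12 in ERb_KO and 0.07 in ERb1.

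**Figure D4:**
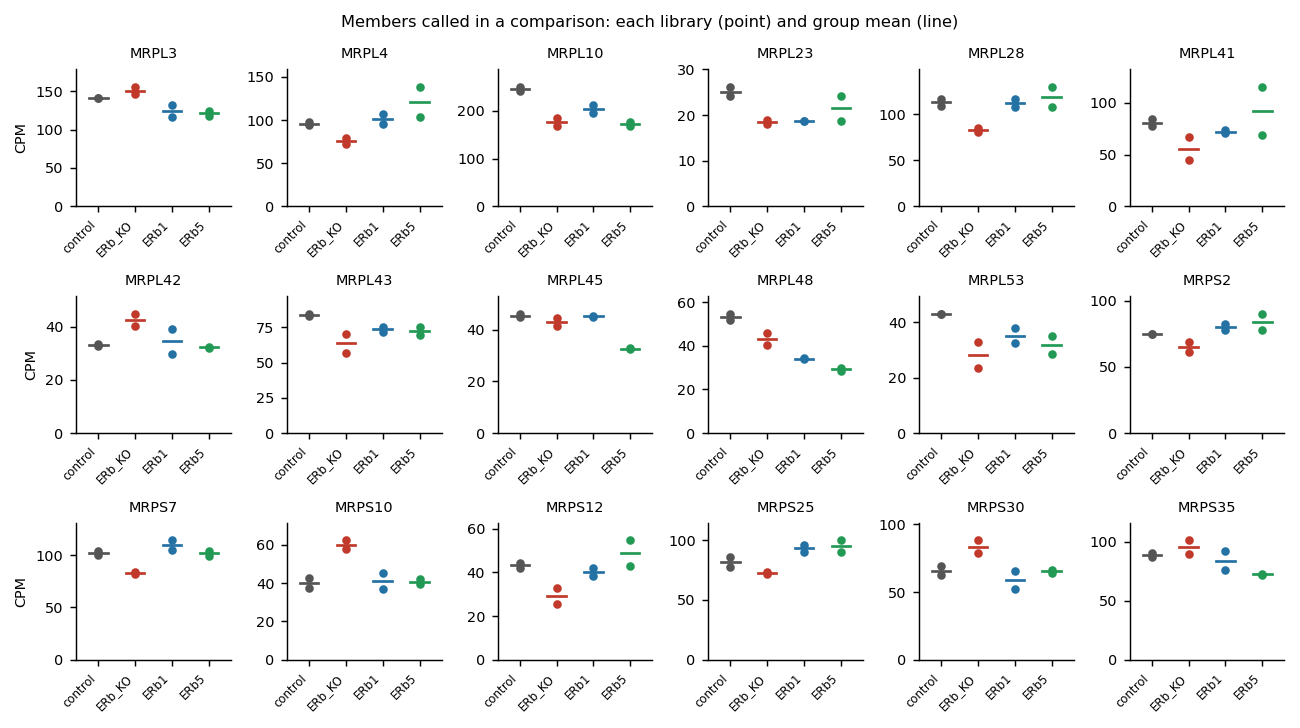
CPM of 18 genes that passed a test and are named in a comparison, with 1 point per library and a line at the mean of each group; every axis starts at 0. MRPS10 is highest in ERb_KO at 57.9 and 62.2, MRPL48 steps down from control at 54.7 and 52.0 to ERb5 at 30.0 and 28.4, and the points of MRPL41 and MRPS12 lie widest apart in ERb5.

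The promoters of the 3 genes that rose most and the 3 that fell most in ERb5 against ERb_KO are shown because factors known from genes of mitochondrial proteins bind close to the start site. Each is the 250 bases before the gene's first listed RefSeq start (GRCh38.p14), written 5′ to 3′ on the strand of the gene. Capitals mark matches, on either strand, to GCGCATGC (NRF1), CCGGAAG (the ETS family, which includes GABP), AAGATGGC (YY1) or GGGCGG (SP1); none of these 4 strings contains another, and a match is a string of letters, not a shown binding site.
MRPS12, chr19:38930694-38930943, plus strand: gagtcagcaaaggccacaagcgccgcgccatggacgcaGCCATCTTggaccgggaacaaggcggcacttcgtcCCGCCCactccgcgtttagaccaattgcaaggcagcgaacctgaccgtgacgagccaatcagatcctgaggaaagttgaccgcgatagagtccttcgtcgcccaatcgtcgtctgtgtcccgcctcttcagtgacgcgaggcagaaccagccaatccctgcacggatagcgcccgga
MRPL41, chr9:137551629-137551878, plus strand: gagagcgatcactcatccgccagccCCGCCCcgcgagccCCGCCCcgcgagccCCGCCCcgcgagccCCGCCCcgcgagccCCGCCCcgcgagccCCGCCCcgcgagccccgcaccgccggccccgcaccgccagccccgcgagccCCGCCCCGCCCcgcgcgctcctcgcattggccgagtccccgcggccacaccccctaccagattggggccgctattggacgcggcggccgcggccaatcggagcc
MRPL4, chr19:10251701-10251950, plus strand: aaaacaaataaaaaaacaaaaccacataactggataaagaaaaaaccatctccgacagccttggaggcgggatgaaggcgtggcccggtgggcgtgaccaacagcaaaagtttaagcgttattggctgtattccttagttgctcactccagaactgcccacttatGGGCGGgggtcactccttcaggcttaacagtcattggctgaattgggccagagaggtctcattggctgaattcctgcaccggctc
MRPL48, chr11:73787624-73787873, plus strand: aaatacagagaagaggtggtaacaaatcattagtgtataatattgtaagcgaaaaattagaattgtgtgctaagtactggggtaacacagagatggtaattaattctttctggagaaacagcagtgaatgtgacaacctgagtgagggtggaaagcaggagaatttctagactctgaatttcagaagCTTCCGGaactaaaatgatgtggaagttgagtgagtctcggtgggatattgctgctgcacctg
MRPS10, chr6:42217862-42218111, minus strand: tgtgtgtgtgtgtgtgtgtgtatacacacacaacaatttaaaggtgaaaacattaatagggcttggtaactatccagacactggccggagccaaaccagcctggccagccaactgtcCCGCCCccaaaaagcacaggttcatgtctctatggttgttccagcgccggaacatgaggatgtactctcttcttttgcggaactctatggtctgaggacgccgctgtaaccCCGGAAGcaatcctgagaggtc
MRPL45, chr17:38296918-38297167, plus strand: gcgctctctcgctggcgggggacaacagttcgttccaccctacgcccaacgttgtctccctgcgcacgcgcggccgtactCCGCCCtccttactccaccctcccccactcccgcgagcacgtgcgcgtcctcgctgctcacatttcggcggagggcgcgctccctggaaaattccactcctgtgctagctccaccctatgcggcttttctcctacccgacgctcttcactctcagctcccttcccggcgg
MRPL41 holds 8 SP1 matches in a GC content of 82.8%, MRPS12 a YY1 and an SP1 match, and MRPL4 and MRPL45 an SP1 match each. MRPL48 holds an ETS match in a GC content of 40.0%, and MRPS10 an ETS and an SP1 match. Of the 66 genes of the set with a promoter in the table, 22 (33.3%) held the ETS string, against 8.82% of all 27305 promoters of the same length. The NRF1 string was in 6 (9.09%, against 2.81%), the YY1 string in 5 (7.58%, against 1.37%) and the SP1 string in 36 (54.5%, against 42.3%). Among genes called in ERb5 against ERb_KO, the ETS string was in 1 of 9 promoters of genes that rose and 4 of 7 of genes that fell, against 17 of 50 of those not called, and the SP1 string in 6, 3 and 27. These splits rest on few promoters and were not tested. The 27305 promoters were neither limited to expressed genes nor matched for GC content, so the comparison with them is a description.

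The libraries labelled ERb5 were compared directly with those labelled ERb1. ERb5 against ERb1 gave 0 rises and 1 fall by edgeR, against 3.49% of all genes higher, 1.18% lower and 4.66% in either direction. At an unadjusted p under 0.05 there were 2 rises and 6 falls, where 1455 of all 13915 genes rose and 1084 fell. DESeq2 also called 0 rises and 1 fall, with 4.49% of all genes higher and 1.95% lower. Groups did not overlap with ERb5 higher for 12 genes and with ERb5 lower for 12 (16.0% each, against 22.1% and 20.9% of all genes). The fall was in MRPL45, from 45 and 45.5 CPM in ERb1 to 32.4 and 32.9 in ERb5, a log2 change of -0.47 ± 0.1 (adjusted p = 0.021; chr17:36452989-36479100, plus strand). Its control and ERb_KO libraries lay between 41.4 and 46.2 CPM, so both ERb5 values stood below the other 6. A pseudogene listed under its own symbol, MRPL45P2, had 67 to 167 counts, and reads shared with such copies cannot be assigned with certainty. For the other 74 genes the log2 changes of ERb5 against ERb1 lay between -0.31 and 0.35, which does not show that these groups are alike in them.

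The MRPL45 call was lost without either control library, either ERb1 library or ERb5 replicate 2 and kept without ERb_KO replicates. Without ERb5 replicate 1 there were 3 rises and 3 falls, with 9.77% of all genes called. With the GC and length trend removed MRPL45 stood at -0.43 (adjusted p = 0.0091).

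MRPL48 had the largest change of any of these genes. The control libraries had 54.7 and 52.0 CPM, those of ERb_KO 40.3 and 46.1, of ERb1 34.1 and 34.3, and of ERb5 30.0 and 28.4. No 2 groups overlapped. ERb5 against control gave a log2 change of -0.87 ± 0.11 (1.83-fold lower, adjusted p = 0.00048), and ERb1 against control -0.64 ± 0.11 (adjusted p = 0.00683). ERb_KO against control stood at -0.30 ± 0.11 (adjusted p = 0.0696) and ERb5 against ERb1 at -0.23 ± 0.11 (adjusted p = 0.307), neither of which passed. So the groups labelled ERb1 and ERb5 lay below control, and adjacent steps of the order from control to ERb5 did not all pass the test. The gene lies at chr11:73498917-73576178 on the plus strand. With the GC and length trend removed the 2 changes against control were -0.81 (adjusted p = 0.000319) and -0.62 (adjusted p = 0.00213).

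Against control, 5 of the 75 genes were lower in ERb5 and none higher by edgeR, with 6.85% of all genes higher, 6.31% lower and 13.2% in either direction. At an unadjusted p under 0.05, 5 were higher and 12 lower, where 2003 and 1885 of all 13915 genes were. DESeq2 called 0 and 6, with 7.25% of all genes higher and 6.84% lower. Besides MRPL48 the falls called by edgeR were MRPL10, at 167 and 177 CPM, with a log2 change of -0.51 ± 0.1 (adjusted p = 0.00528), MRPL45 with -0.48 ± 0.1 (adjusted p = 0.00899), MRPS27 with -0.40 ± 0.11 (adjusted p = 0.033) and MRPL33 with -0.36 ± 0.11 (adjusted p = 0.0427). MRPL10 in ERb5 was thus near its ERb_KO level of 168 and 185 CPM. In ERb1 against control MRPL48 alone was called, with 1.36% of all genes higher, 2.7% lower and 4.06% in either direction. At an unadjusted p under 0.05, 0 genes of the set were higher and 6 lower, where 1297 and 1402 of all 13915 genes were. DESeq2 called 0 and 1, with 2.47% of all genes higher and 3.74% lower. Without either control library only MRPL48 of the set was called in ERb5 against control (4.13% and 5.17% of all genes), and without control replicate 1 no gene of the set was called in ERb1 against control (0.901%); without either ERb5 library the latter had 2 falls (6.85% and 6.87%).

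**Figure D5:**
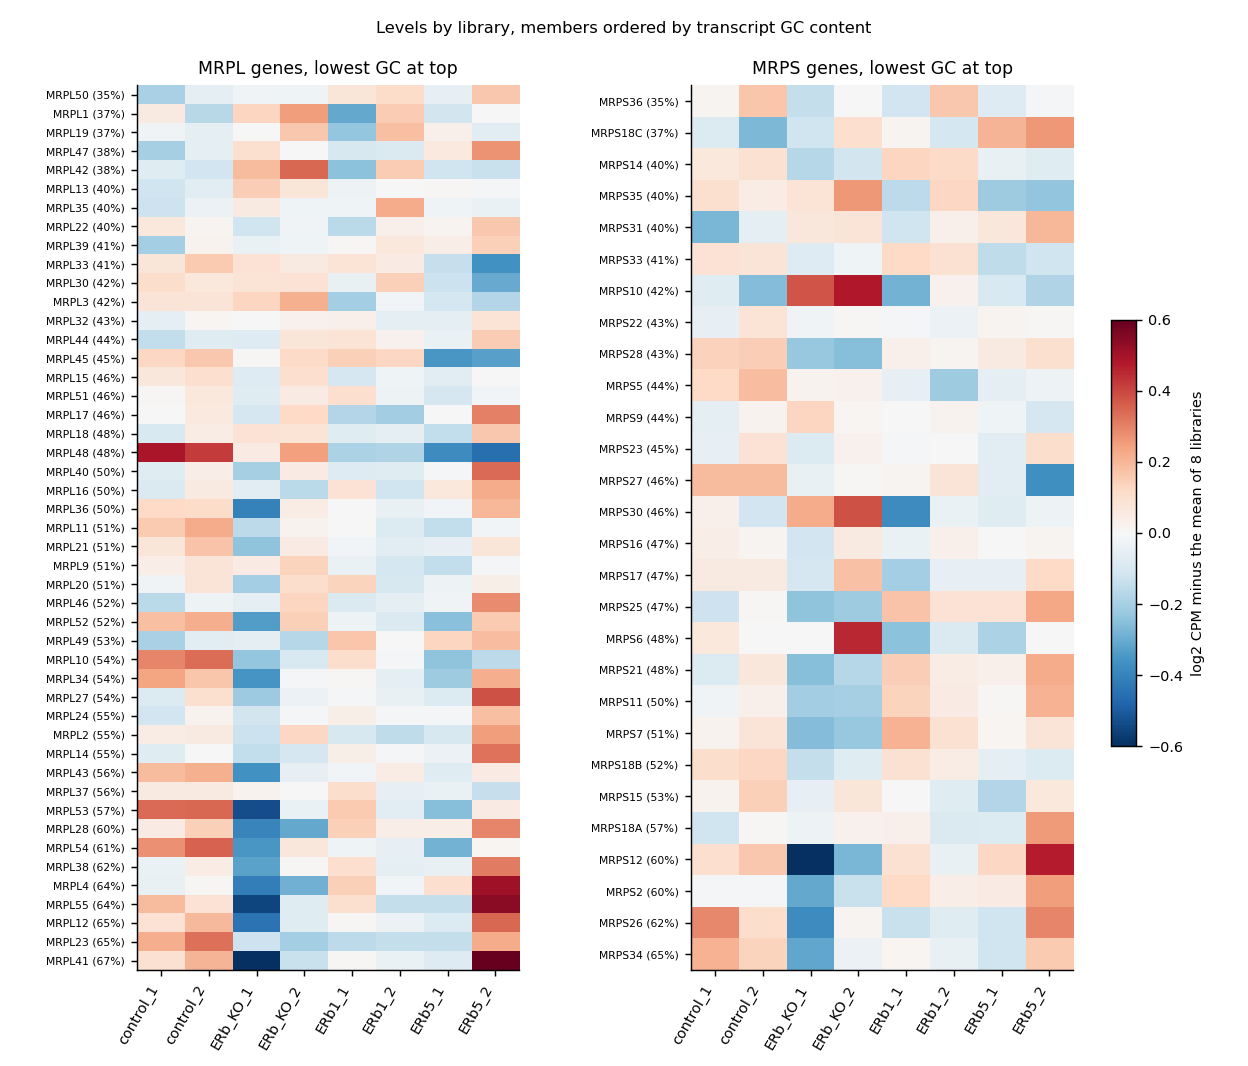
Log2 CPM of each gene in each library minus its mean over the 8 libraries, MRPL genes on the left and MRPS genes on the right, ordered by the GC content of the transcript (in parentheses), with colours saturating at -0.6 and 0.6. In the lower rows, of high GC content, ERb_KO_1 is mostly blue and ERb5_2 mostly red, while MRPL48, MRPS10 and MRPL45 show the same colour in both replicates of ERb5.

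Other parts of the mitochondrial translation apparatus were read from 5 lists, none of which was tested as a set. Over all genes, 17.5% were called in ERb_KO against control (8.98% higher, 8.52% lower) and 24.9% in ERb1 against ERb_KO (12.4% and 12.5%). The share was 28.2% in ERb5 against ERb_KO (14.7% and 13.5%) and 4.66% in ERb5 against ERb1 (3.49% and 1.18%). Of 7 ribosomal proteins named outside the MRPL and MRPS series, 1 was called: GADD45GIP1 fell in ERb_KO against control (-0.55 ± 0.15, adjusted p = 0.0289) and rose in ERb5 against ERb_KO (0.66 ± 0.15, adjusted p = 0.0102). None of the 7 was called by edgeR or DESeq2 in ERb1 against ERb_KO or in ERb5 against ERb1 (1 and 0 at an unadjusted p under 0.05). Of 14 factors of mitochondrial translation, none was called by edgeR or DESeq2 in ERb_KO against control or in ERb5 against ERb1 (2 and 0 at an unadjusted p under 0.05). Against ERb_KO, 3 rose in ERb1: the translational activator of COX1 TACO1 (0.37 ± 0.11, adjusted p = 0.026) and the elongation factors TSFM (0.32 ± 0.11, adjusted p = 0.0444) and TUFM (0.30 ± 0.1, adjusted p = 0.0493). In ERb5, TACO1 (0.46 ± 0.11, adjusted p = 0.0102) and TSFM (0.34 ± 0.11, adjusted p = 0.0331) rose, and GUF1 (-0.49 ± 0.17, adjusted p = 0.0456) and the RNA-binding protein LRPPRC (-0.34 ± 0.12, adjusted p = 0.0496) fell. Median log2 changes (ERb_KO against control, then ERb1 and ERb5 each against ERb_KO) were -0.15, 0.02 and 0.19 for the other ribosomal proteins and -0.02, -0.09 and -0.13 for the translation factors, where all genes had medians within 0.01 of 0.

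Of 26 assembly factors and RNA-modifying enzymes, 4 fell and none rose in ERb_KO against control: the methyltransferase MRM1 (-0.65 ± 0.15, adjusted p = 0.0156), the endoribonuclease YBEY (-0.62 ± 0.15, adjusted p = 0.0173), the GTPase NOA1, listed as C4orf14 (-0.60 ± 0.11, adjusted p = 0.00618), and the pseudouridine synthase RPUSD4, outside the 3 largest (-0.50 ± 0.12, adjusted p = 0.0167). In turn, 5 rose and none fell in ERb1 against ERb_KO, led by YBEY (0.82 ± 0.15, adjusted p = 0.00275), MRM1 (0.66 ± 0.15, adjusted p = 0.00956) and MPV17L2 (0.56 ± 0.14, adjusted p = 0.0143). In ERb5, 5 rose and none fell, led by MRM1 (0.63 ± 0.15, adjusted p = 0.0124), the helicase DDX28 (0.57 ± 0.14, adjusted p = 0.0151) and MPV17L2 (0.55 ± 0.14, adjusted p = 0.0155). C4orf14 was lower in ERb5 than in ERb1 (-0.50 ± 0.11, adjusted p = 0.0272), the only assembly gene called between these groups, with 0 higher by edgeR, DESeq2 or at an unadjusted p under 0.05. The median log2 change of the 26 was -0.09 for ERb_KO against control, and 0.23 for ERb1 and 0.17 for ERb5 against ERb_KO. At an unadjusted p under 0.05, 0 rose and 8 fell, 9 rose and 1 fell, and 11 rose and 2 fell in that order. Of all 13915 genes, 2469 and 2352, 2704 and 2721, and 2999 and 2877 did so. DESeq2 called 0 and 4, 6 and 1, and 6 and 0 of the list. Over all genes it called 1392 and 1385, 1743 and 1806, and 2085 and 1914.

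Among 16 genes of mitochondrial DNA maintenance, transcription and RNA processing, PNPT1 moved most. This RNA-degrading enzyme of mitochondria, known to be induced by interferon, had 60.9 and 58.5 CPM in control, 175 and 128 CPM in ERb_KO, 67.0 and 72.9 CPM in ERb1, and 161 and 260 CPM in ERb5. Both ERb1 libraries were near control and well below both ERb5 libraries. By edgeR it was the 1 gene of the list called in ERb_KO against control (1.34 ± 0.21, adjusted p = 0.00474; DESeq2 called 2 genes) and in ERb5 against ERb1 (1.59 ± 0.21, adjusted p = 0.00282), and it fell in ERb1 against ERb_KO (-1.11 ± 0.21, adjusted p = 0.0053). With the GC and length trend removed these changes were 1.08 (adjusted p = 0.0572), 1.68 (adjusted p = 0.0196) and -0.87 (adjusted p = 0.0697) in that order. HSD17B10 (0.45 ± 0.1, adjusted p = 0.00953) and ELAC2 (0.43 ± 0.09, adjusted p = 0.00694), which take part in cutting transfer RNAs out of mitochondrial transcripts, rose in ERb1 against ERb_KO. In ERb5, 4 rose and 1 fell: the mitochondrial RNA polymerase POLRMT (0.61 ± 0.14, adjusted p = 0.00984), ELAC2 (0.49 ± 0.09, adjusted p = 0.00459), the helicase gene C10orf2 (0.40 ± 0.1, adjusted p = 0.0166) and HSD17B10 rose, and TFAM, which packages mitochondrial DNA, fell (-0.53 ± 0.15, adjusted p = 0.0232). The medians of this list were 0.03, 0.10 and 0.04 in ERb_KO against control and in ERb1 and ERb5 against ERb_KO.

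Nuclear regulators known for genes of mitochondrial proteins formed a list of 10, of which 9 were tested. ESRRA, an orphan nuclear receptor, had 64.2 and 64.4 CPM in control, 31.5 and 44.7 CPM in ERb_KO, 53.2 and 50.8 CPM in ERb1, and 47.7 and 52.3 CPM in ERb5. Both ERb_KO libraries were the lowest and both control libraries the highest. It was the 1 regulator called in ERb_KO against control (-0.76 ± 0.14, adjusted p = 0.00695) and rose in ERb1 against ERb_KO (0.45 ± 0.14, adjusted p = 0.0406). The GABP subunit GABPB1 (-0.51 ± 0.12, adjusted p = 0.0097), NRF1 (-0.35 ± 0.11, adjusted p = 0.0446) and SP1 (-0.34 ± 0.09, adjusted p = 0.0215) fell in ERb1 against ERb_KO. In ERb5, edgeR called 5 falls and 0 rises (DESeq2 5 and 1, and 5 and 2 at an unadjusted p under 0.05), led by GABPA (-0.80 ± 0.24, adjusted p = 0.0288), GABPB1 (-0.48 ± 0.12, adjusted p = 0.0142) and NRF1 (-0.38 ± 0.11, adjusted p = 0.0301). None was called in ERb5 against ERb1 by edgeR or DESeq2 (2 at an unadjusted p under 0.05, 1 in each direction). The medians of the 9 were 0.24, -0.19 and -0.35 in ERb_KO against control and in ERb1 and ERb5 against ERb_KO, the first opposite in sign to the fall of ESRRA. The lists were read against the same shares of all genes as the ribosomal proteins, and with the GC and length trend removed 21 of their 44 calls in the 4 main comparisons remained, among them ESRRA and C4orf14 in ERb_KO against control, YBEY in ERb1 against ERb_KO, and ELAC2 and NRF1 in both comparisons against ERb_KO. When single libraries were left out, 12 of the 44 held without ERb_KO replicate 1, 25 without ERb_KO replicate 2, 27 and 24 without control replicate 1 or 2, 30 and 37 without ERb1 replicate 1 or 2, and 41 and 25 without ERb5 replicate 1 or 2.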

How the data were processed

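The authors deposited raw read counts per gene for each of the 8 libraries: TruSeq total RNA, single-end reads of 50 bases, per the labels' protocols. Per the submitters' processing notes bcl2fastq, TopHat2 2.0.8b, hg19 and HTSeq were used; for HTSeq, the version, strand setting and annotation were not given in the sources used here. Reads with more than 1 place were left outside genes (34.7 to 39.9% of counted reads), and 5 closing entries that name no gene were left out.

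Counts were filtered with filterByExpr (minimum count 10, minimum total 15), which kept 13915 genes and all 75 chosen ones, scaled by TMM and tested with edgeR 4.0.16 in R 4.3.3 (quasi-likelihood, robust) with all 8 libraries in a single fit. The biological coefficient of variation common to all genes came to 0.102. Benjamini-Hochberg adjustment ran over all genes; called means an adjusted p under 0.05. SE is the log2 change over the root of its F value. CPM are TMM-scaled, and percentages of gene reads use raw totals. Transcript lengths, GC content and positions come from GENCODE on GRCh37, the build of hg19, matched by symbol for 19712 of the 23228 genes; RefSeq promoters are on GRCh38.p14. The fit was also run on simulated counts that held no trend with GC content, so this check does not cover that trend.

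Genes were named by a rule: the 5 highest and 5 lowest per kilobase, up to 6 largest rises and falls and the 2 smallest p-values each way in the main comparisons (3 each way against control), 13 genes of fixed roles, those at the count threshold, and up to 3 called genes each way per pathway list. Members, lists and this rule were chosen with earlier results of these data known. As alternatives, the fit used size factors by relative log expression or the upper quartile, no filter or 1 CPM in 2 libraries, only the groups compared, DESeq2 1.42.0, a replicate block, removal of each library's trend with GC content and length (lowess offsets), and leaving out each library, where a lone library is assumed to vary like the other groups.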

Additional observations from a re-analysis of the deposited data

How the results depend on the processing

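Across the alternatives that keep all libraries, counts of called genes moved by over 1.5 times as follows. In ERb_KO against control, falls were 11 with upper-quartile factors (1531 of all 13915 genes tested). Rises and falls were 3 and 15 without a filter (9.93% and 9.17% of all genes). They were likewise 3 and 15 with only the groups compared (17.3% and 14.3%). With the GC and length trend removed they were 2 and 6 (6.32% and 5.49%). In ERb1 against ERb_KO, rises were 9 (with 2 falls) with upper-quartile factors (13.7% and 11.6% of all genes). Rises and falls were 10 and 9 with the trend removed (10.8% and 13.1%). In ERb5 against ERb_KO, rises were 4 with only the groups compared (9.38% of all genes). In ERb5 against ERb1, falls were 0 with only the groups compared (0.745% of all genes) and 2 with the trend removed (2.9%). In ERb1 against control, falls were 2 without a filter (3.99% of all genes) and 2 with the trend removed (5.62%). In ERb5 against control, rises were 1 without a filter (7.09% of all genes) and falls 3 with only the groups compared (5.97%). Rises and falls were 3 and 8 with the trend removed (11.4% and 10.5%). Leaving out each library in turn, rises and falls ranged from 0 to 3 and 0 to 14 (ERb_KO against control), 0 to 9 and 0 to 5 (ERb1 against ERb_KO), 3 to 16 and 1 to 9 (ERb5 against ERb_KO), 0 to 3 and 0 to 3 (ERb5 against ERb1), 0 to 0 and 0 to 2 (ERb1 against control) and 0 to 1 and 1 to 5 (ERb5 against control). With fewer libraries the fit has fewer degrees of freedom; beyond that the cause was not tested.

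The naming rule, which takes the largest changes and smallest p-values, picked 32 called changes in ribosomal genes. Calls outside it are not counted here. All 32 kept their call under relative log expression factors, no filter, 1 CPM in 2 libraries, DESeq2 and the replicate block. Of them 31 held with upper-quartile factors, 27 with only the groups compared and 18 with the trend removed. Some were lost in every fit without a library. Of all 17 calls in ERb5 against ERb_KO, 14 held without a filter and 16 with the block. With the trend removed the log2 change of ERb_KO against control turned to 0.07 for MRPL23. Among the genes of fixed roles, none of them called, it turned to 0.06 for MRPL12, -0.02 for MRPL3, 0.0 for MRPL41 and -0.15 for MRPS18C. Genes without a call outside those roles changed sign too, among them MRPL4 (-0.33 to 0.08), MRPS34 (-0.34 to 0.11), MRPL19 (0.12 to -0.25) and MRPL50 (0.10 to -0.35). Leaving out a library, the log2 change ran from -0.14 to 0.03 for MRPS16 (positive without ERb_KO replicate 1), from -0.09 to 0.04 for MRPS22 (positive without control replicate 2) and from -0.01 to 0.11 for MRPS18A (negative without control replicate 1). Of 44 calls in the pathway lists, 39 held under the block, 34 with only the groups compared, 21 with the trend removed and 12 to 41 without a library.

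With all libraries kept, all-gene counts moved by over 1.5 times in ERb_KO against control (2434 to 4351 with only the groups compared), ERb5 against ERb_KO (3922 to 2524 with the trend removed), ERb5 against ERb1 (649 to 1375 without a filter, 421 with only the groups compared, 1161 with the trend removed), ERb1 against control (565 to 1384, 1107 and 1366 under those, and 865 with DESeq2) and ERb5 against control (1831 to 3040 with the trend removed). Without a library they ran from 237 to 3226, 1198 to 4203, 1674 to 4378, 125 to 1389, 128 to 975 and 587 to 2143 in ERb_KO against control, ERb1 and ERb5 against ERb_KO, ERb5 against ERb1, and ERb1 and ERb5 against control. The trend was fitted over all genes and was turned over, not flattened, in the 75 (r = 0.34, -0.48 and -0.40 afterwards in the first 3 comparisons). Over all genes tested, the difference between replicates 1 and 2 correlated between groups at -0.12 to 0.139. With 1 difference per group, this cannot show whether libraries of the same number were prepared together. With the replicate block, rises and falls were 1 and 10, 6 and 4, 10 and 8, and 0 and 1 in the 4 main comparisons in the order of the text. Over all genes, 9.33% rose and 8.87% fell, then 12.5% and 12.8%, 14.6% and 13.6%, and 3.51% and 1.17%. With 2 libraries a group, small changes are not detectable here.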
